A study of Drosophila melanogaster with 6 samples.

Results

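The genes described here are 27 genes of Drosophila melanogaster whose name in the deposited tables begins with eIF, in capitals and small letters as written, out of 13690 genes with a value. Where a gene had several transcript entries, the entry with the highest mean over the arrays stood for it, and the choice used no difference between groups. The 27 genes came from 54 transcript entries. Total RNA from ovaries of adult flies was hybridized to tiling arrays after biotin labelling of double-stranded DNA with an Affymetrix kit, and 3 arrays carry the name uap56 and 3 the name vasa. The flies of both groups were raised on cornmeal medium and the adults received wet yeast. The groups are named for UAP56, the DEAD-box helicase of mRNA export encoded by Hel25E, and for Vasa, the DEAD-box helicase of the germline encoded by vas. The labels give neither alleles, ages nor numbers of animals, and ovaries in which neither gene was affected were not analysed here. The series title ties UAP56 to piRNA clusters and transposon silencing, and the comparison below asks how far the mRNAs of the translation machinery differed between the same ovaries.

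Translation initiation brings the ribosome to the start codon of an mRNA. eIF2 carries the initiator tRNA and is recharged with GTP by eIF2B, eIF3 holds the small ribosomal subunit, and the eIF4 factors bind the cap and unwind the leader. eIF5 triggers GTP hydrolysis on eIF2, and eIF5B, a GTPase, lets the large subunit join. In Drosophila, Vasa binds eIF5B, and germline translation of some mRNAs depends on Vasa. By current nomenclature, 2 of the 27 are not initiation factors in the strict sense. The gene named eIF-5A in the tables is now eEF5 and acts in elongation, and eIF4AIII (CG7483) is the helicase of the exon junction complex.

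The deposited value is an intensity, already summarised per transcript and normalized by the authors, on a linear scale. Differences are log2 uap56 minus log2 vasa, so a value below 0 means a higher signal in vasa. Fold values are taken from the log2 difference, so they can differ slightly from the ratio of the printed means. They were tested with limma, with a variance prior that follows intensity (the trend fit), across all 13690 genes and with Benjamini-Hochberg adjustment at 0.05. Intensities of different genes come from different probes and are not ranked against each other. The number of arrays limits the precision, and p-values measure the spread between these arrays, which may be technical, since the labels do not say that replicates were separate animals. The label check held for vas, with means of 1698 ± 341 for uap56 and 297 ± 75.1 for vasa (SD, n = 3 each) and a log2 difference of 2.52 (adjusted p = 0.00183 in the limma trend fit, 0.0856 with a single prior and 0.0623 without uap56 replicate 3 and vasa replicate 1). Hel25E averaged 1419 ± 326 on uap56 arrays and 1610 ± 192 on vasa arrays, and its arrays overlapped (log2 difference -0.20, adjusted p = 0.642, limma), so the label uap56 could not be checked from this gene. Of the ovary markers, 8 germline and 8 follicle cell genes were found, with summed intensities of 11075 to 13459 (germline) and 55701 to 71488 (follicle cell) on uap56 arrays and of 11495 to 14162 and 57595 to 70383 on vasa arrays. The germline gene nanos was past the threshold, as were 3.83% of all genes. It was higher in uap56, with means of 5579 for uap56 and 3455 for vasa (log2 difference 0.69, adjusted p = 0.0171, limma). Its mean was the largest of the 8 on uap56 arrays, so it weighs on the germline sums. The difference of bcd was 0.01, and those of the other germline markers ran from -0.65 (grk) to -0.25 (spn-E). The median difference of the 8 was -0.48. Testis, hemocyte, neuron and fat body markers summed to at most 671 on any array, while 6 muscle genes summed to 4421 to 7188. Among the muscle genes Act57B had means of 4241 for uap56 and 3916 for vasa, so it weighs on the muscle sums.

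One of the 27 genes differed past the threshold. eIF4G1, the scaffold that joins the cap-binding protein to the helicase and the ribosome, was 2.05-fold higher in vasa. Toward uap56, 0 genes passed, and 1, eIF2Bbeta, had an unadjusted p under 0.05. The gene past the threshold is 3.70% of the 27, against 3.83% of all genes (1.35% higher in vasa and 2.48% higher in uap56), so the share called was near that of the whole table. With a single variance prior 0 of the 27 passed, and 2 of all genes (0.0146%). The unadjusted p was under 0.05 for 4 of the 27 (14.8%) in the trend fit, where 18.2% of all genes reached it. The uap56 and vasa arrays were fully separated for 7 of the 27 (25.9%), against 23.5% of all genes. Of these 7, 6 were higher in vasa (22.2% of the 27, against 10.0% of all genes), namely eIF4G1, eIF4B, eIF4E1, eIF5, eIF5B and eIF1A. Higher in uap56 was eIF4E5 alone, 1 of the 27, against 13.5% of all genes. Against the 6114 genes with means in the range of the 22 eIF genes other than eIF4E3 to eIF4E7, the share separated was 27.3% of the 22 against 34.7%, and the share called was 4.55% against 7.69%. Separated with vasa higher were 27.3% of the 22 and 13.1% of the 6114. With uap56 higher, 0 of the 22 and 1321 of the 6114 were separated. The difference lay below 0 for 17 of the 27, against 48.6% of all genes, and the median was -0.10 against 0.02. In bulk tissue, fewer cells of a type and less RNA per cell cannot be told apart, and neither can a lower level in one group and a higher level in the other.

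**Figure D1:**
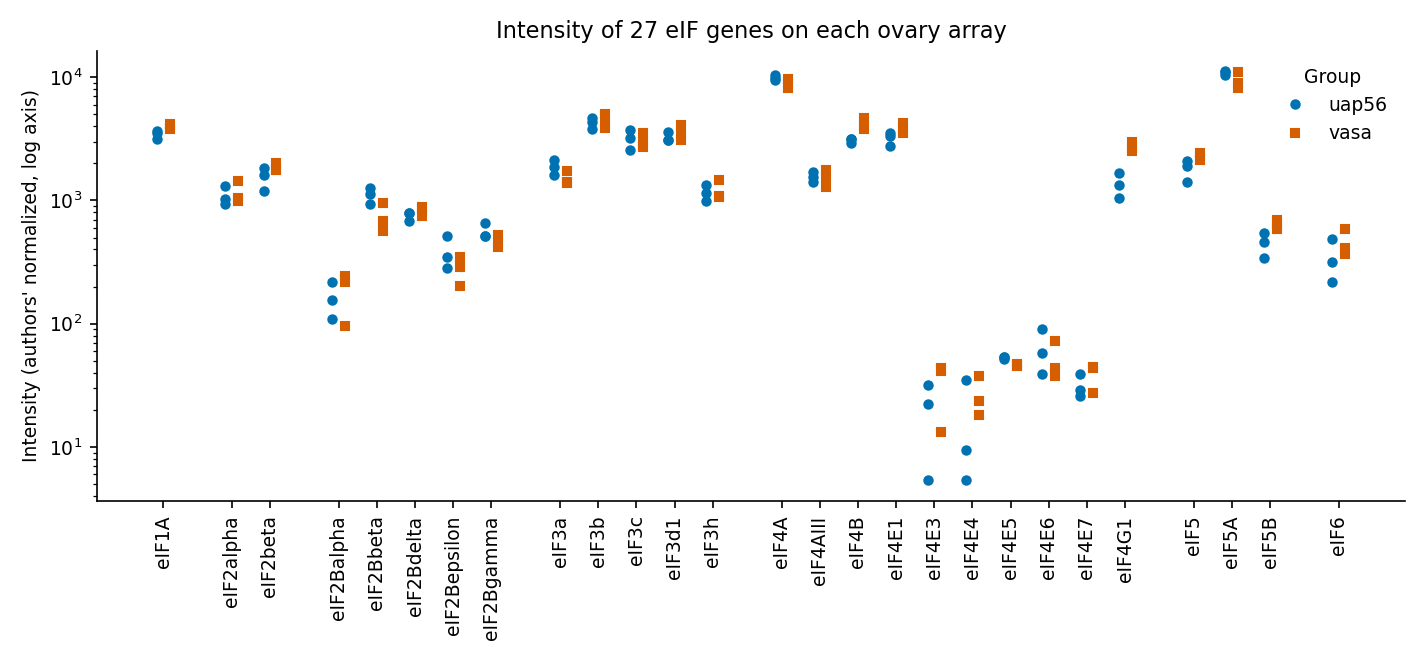
Intensity of each of the 27 eIF genes on the 3 uap56 arrays (circles) and the 3 vasa arrays (squares), grouped by factor, on a log axis. The arrays of eIF4G1 form separate groups, 2.05-fold apart by the log2 difference, and eIF4E3 to eIF4E7 lie below 100 on every array.

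In the limma trend fit, the spread of most of these genes was small enough to bound the difference. For 18 of the 27 (66.7%, against 44.9% of all genes), the 95% interval of the difference lay wholly inside a 2-fold change either way. The same held for 17 of the 22 genes other than eIF4E3 to eIF4E7. Intervals with a single prior were not computed, and there the SE of eIF5B was 0.227, against 0.194 in the trend fit. Among all genes with means in the range of those 22, the share with such an interval was 76.1%, against 77.3% of the 22. Intervals that reached beyond a 2-fold change belonged, among the 22, to eIF4G1, eIF2Balpha, eIF2Bbeta, eIF2Bepsilon and eIF6.

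**Figure D2:**
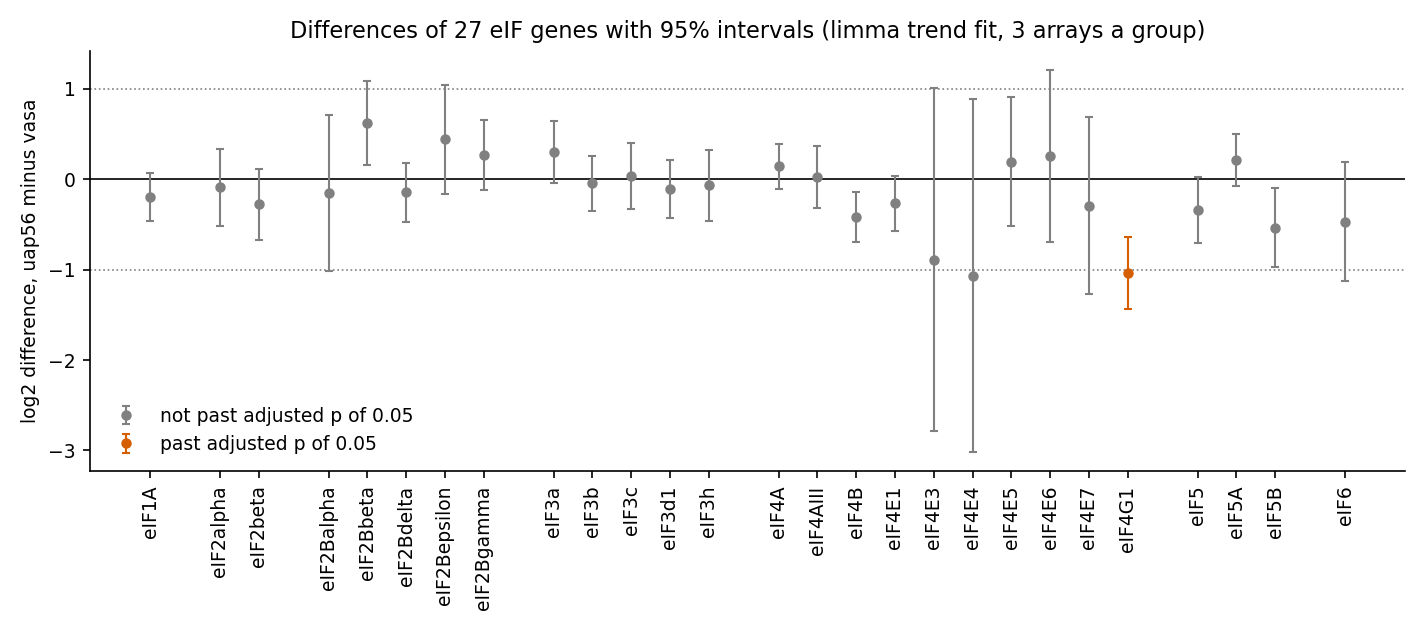
Log2 difference (uap56 minus vasa) of each eIF gene with its 95% interval from the limma trend fit, and dotted lines at a 2-fold change. eIF4G1 at -1.04 is the gene past the adjusted threshold, and the widest intervals are those of eIF4E3 and eIF4E4.

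eIF1A and the subunits eIF2alpha and eIF2beta did not pass the threshold. eIF1A, which helps the scanning ribosome settle on the start codon, read 3514, 3679 and 3154 on the uap56 arrays and 4134, 3876 and 3808 on the vasa arrays. The vasa arrays were all above, but the log2 difference of -0.19 (95% interval -0.46 to 0.07) did not pass (adjusted p = 0.439, limma). eIF2alpha, the subunit that stress kinases phosphorylate, averaged 1089 ± 199 on uap56 arrays and 1159 ± 240 on vasa arrays (n = 3 each), and eIF2beta averaged 1542 ± 326 and 1843 ± 132, with overlapping arrays for both. The 95% intervals were -0.51 to 0.34 for eIF2alpha and -0.67 to 0.11 for eIF2beta.

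The 5 subunits of eIF2B, the exchange factor that reloads eIF2, did not move one way. The differences of eIF2Bbeta, eIF2Bepsilon and eIF2Bgamma lay above 0 and those of eIF2Balpha and eIF2Bdelta below. None passed. eIF2Bbeta, a regulatory subunit, read 943, 1269 and 1127 in uap56 and 955, 685 and 568 in vasa. A single vasa array reached into the range of uap56, and the log2 difference of 0.62 ± 0.21 (SE) had an unadjusted p of 0.0146 and an adjusted p of 0.148 in the limma trend fit. eIF2Bepsilon, the catalytic subunit, averaged 382 ± 116 on uap56 arrays and 280 ± 73.9 on vasa arrays, with a difference of 0.44 (adjusted p = 0.439). Without uap56 replicate 2 that difference was 0.21, without vasa replicate 3 it was 0.23, and with uap56 replicate 3 and vasa replicate 1 both left out it was 0.81. The remaining subunits had differences of 0.27 (eIF2Bgamma), -0.14 (eIF2Bdelta) and -0.16 (eIF2Balpha), and the 95% interval of eIF2Balpha, -1.02 to 0.71, was too wide to bound it within 2-fold.

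The 5 eIF3 subunits under an eIF name had a median absolute difference of 0.06, against 0.27 over the 27 genes and 0.34 over all genes. Over the 6114 genes with means in the range of the 22, it was 0.29. Over the 16 eIF3 subunit genes under any name it was 0.23. eIF3a, the largest subunit, read 2111, 1866 and 1612 in uap56 and 1722, 1387 and 1421 in vasa. Its groups overlapped by 1 array, and the log2 difference of 0.30 (95% interval -0.04 to 0.64) did not pass (adjusted p = 0.344, limma). eIF3d1, which can bind the cap itself in human cells, averaged 3261 ± 294 on uap56 arrays and 3522 ± 532 on vasa arrays, a difference of -0.10 (adjusted p = 0.768, limma), and of 0.01 without vasa replicate 1. For eIF3b, eIF3c and eIF3h, which belong to the same complex, the differences were -0.05, 0.04 and -0.06, and the intervals of all 5 lay inside a 2-fold change.

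Of the cap-binding complex, eIF4G1 passed, and eIF4A, eIF4E1 and eIF4B did not. eIF4G1, the scaffold, read 1658, 1337 and 1047 on the uap56 arrays and 2989, 2538 and 2650 on the vasa arrays. Every vasa array was above every uap56 array. The means were 1347 ± 306 and 2726 ± 235 (SD, n = 3 each), and the log2 difference of -1.04 ± 0.18 (SE) gave an adjusted p of 0.0173 in the limma trend fit. With a single variance prior the adjusted p of eIF4G1 was 0.153. The call was also lost without uap56 replicate 2 (adjusted p = 0.0704), vasa replicate 2 (0.0555) or vasa replicate 3 (0.0632), while the difference stayed between -1.20 and -0.87 over the 6 fits that left out 1 array. Its pair of transcript entries gave -1.04 and -1.03.

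eIF4A, the RNA helicase that eIF4G holds, read 9800, 10417 and 9511 in uap56 and 9719, 8102 and 9139 in vasa, so the groups overlapped. The difference of 0.14 (95% interval -0.11 to 0.39) did not pass (adjusted p = 0.554, limma). eIF4E1, the main cap-binding protein, read 3512, 3302 and 2788 in uap56 and 4235, 3785 and 3515 in vasa. The groups touched at their edges, 3512 in uap56 against 3515 in vasa, and the difference was -0.27 (adjusted p = 0.347). eIF4B, which stimulates the helicase, read 3176, 3171 and 2946 in uap56 and 4632, 3970 and 3830 in vasa. The vasa arrays of eIF4B were all higher, with a difference of -0.42 ± 0.12 (SE) and an adjusted p of 0.102 in the limma trend fit, and of 0.0242 after quantile normalization.

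Ratios taken within an array do not depend on a scaling factor common to its genes. These pairs were chosen after the values were seen. The ratio of eIF4G1 to eIF4A was 0.136 ± 0.0302 in uap56 and 0.304 ± 0.0121 in vasa, and that of eIF4G1 to eIF4E1 was 0.417 ± 0.0495 and 0.710 ± 0.0419. The ratio of eIF4B to eIF4A was 0.313 ± 0.0102 in uap56 and 0.462 ± 0.0377 in vasa. For eIF4E1 to eIF4A it was 0.323 ± 0.0330 and 0.429 ± 0.0417, and for eIF4G1 to its paralogue eIF4G2 3.51 ± 0.182 and 5.08 ± 1.70. Every pair computed is given, and none of the ratios overlapped between the groups. The pairs share eIF4G1 or eIF4A and are not independent of each other. How often ratios of other gene pairs separate was not computed. The two-sided exact permutation p was 0.1 for each, the smallest that 3 arrays against 3 can give. These ratios are therefore a description with no test that could pass.

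**Figure D3:**
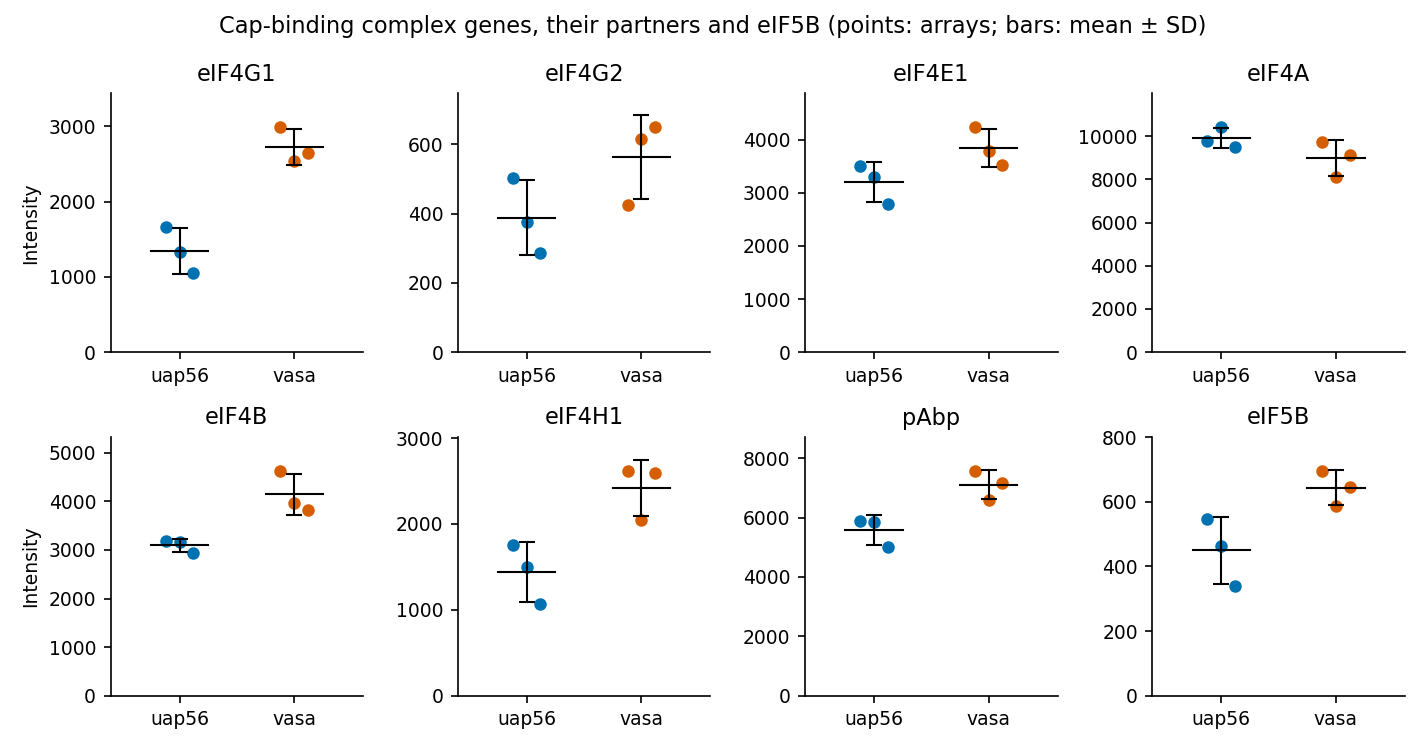
Intensity, from 0, of eIF4G1, its paralogue eIF4G2, eIF4E1, eIF4A, eIF4B, eIF4H1, the poly(A)-binding protein gene pAbp and eIF5B on each array (points), with the mean and SD of 3 arrays (bars). The eIF4G1 points are separated by group, while the ranges of eIF4A overlap.

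The signals of eIF4E3 to eIF4E7, relatives of eIF4E1, were weak in these ovaries. eIF4E3, known for a role in spermatogenesis, read 5.36, 31.6 and 22.3 in uap56 and 43.4, 13.3 and 41.6 in vasa, and eIF4E4 read 5.36, 9.37 and 35.0 in uap56 and 18.1, 37.5 and 23.8 in vasa. The arrays overlapped for both, and the log2 differences of -0.89 and -1.06 had 95% intervals of -2.79 to 1.01 and -3.02 to 0.89. eIF4E5 read 51.4, 54.0 and 53.6 in uap56 and 46.6, 47.4 and 45.0 in vasa, so its uap56 arrays were all above, with a difference of 0.19 (adjusted p = 0.810, limma). eIF4E6 (62.5 ± 26.1 in uap56 and 51.3 ± 18.3 in vasa) and eIF4E7 (31.2 ± 6.77 and 38.6 ± 9.86) overlapped. At this end of the scale the deposited values come in steps, and up to 84 transcript entries of 1 array hold the same value as one of these 5 genes, within a relative tolerance of 0.0001. The fewest, the gene's own entry included, was 1 for eIF4E5 and 31 for eIF4E7. For the 22 brighter eIF genes, up to 17 entries of other genes shared a value. No order is read from the values of these 5 weak genes. eIF4AIII, the exon junction helicase, averaged 1554 ± 146 on uap56 arrays and 1535 ± 229 on vasa arrays, a difference of 0.02 (95% interval -0.32 to 0.37).

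Vasa's partner eIF5B read 547, 464 and 341 on the uap56 arrays and 696, 588 and 645 on the vasa arrays. The 3 vasa arrays were above the 3 uap56 arrays, with 547 and 588 the nearest pair. The means were 451 ± 104 and 643 ± 53.9 (SD, n = 3 each). By the log2 difference the signal was 1.45-fold higher in vasa. The log2 difference of eIF5B was -0.54 ± 0.19 (SE), with a 95% interval of -0.97 to -0.10 before adjustment and an unadjusted p of 0.0212. Adjusted over all genes, it did not pass, with a p of 0.179 in the limma trend fit and 0.340 with a single prior. Without uap56 replicate 3, the lowest array, the difference was -0.35 (adjusted p = 0.320), so 1 array moved it by more than 1.5 times. Relative to the median of the other 21 brighter eIF genes on the same array, the difference of eIF5B was -0.36.

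eIF5, the GTPase activator of eIF2, read 2086, 1888 and 1417 in uap56 and 2410, 2138 and 2209 in vasa. Its vasa arrays were all above, and the difference of -0.34 (95% interval -0.71 to 0.02) did not pass (adjusted p = 0.307, limma). The gene of the elongation factor eIF5A (eEF5) lay the other way, with means of 10831 ± 409 for uap56 and 9400 ± 1502 for vasa, and its arrays overlapped (0.22, adjusted p = 0.431). eIF6, which keeps the large subunit from joining too early, read 485, 318 and 218 in uap56 and 583, 414 and 369 in vasa. The ranges overlapped, and the difference of -0.47 (adjusted p = 0.457, limma) was 0.0073 with uap56 replicate 3 and vasa replicate 1 both left out.

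The common direction changed with the arrays used. On vasa replicate 1, 22 of 22 brighter eIF genes lay above their own mean over the 6 arrays, against 53.8% of all genes. Their median deviation was 0.23 on the log2 scale, where the median of all genes was 0.04. On uap56 replicate 3, 4 of the 22 lay above their mean, against 46.8% of all genes, with a median deviation of -0.23 against -0.04. Deviations of other genes in the same intensity range were not computed. The number of eIF genes with a difference below 0 was 17 of 27 with all arrays, 12 without vasa replicate 1, 14 without uap56 replicate 3 and 12 without both. With both left out, eIF4G1 was at -0.80 (adjusted p = 0.0751), eIF4B at -0.30, eIF5B at -0.29 and eIF5 at -0.13, and eIF2Bbeta was at 0.81. The part of RNA quality or hybridization in these arrays was not tested.

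**Figure D4:**
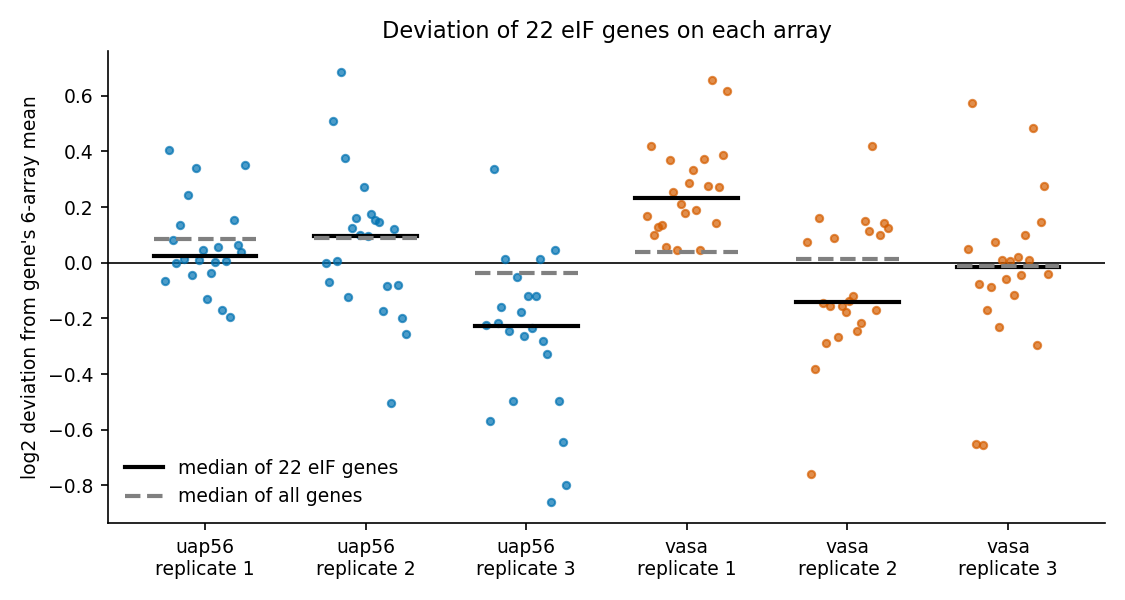
Deviation (log2) of each of the 22 brighter eIF genes from its own mean over 6 arrays, one column of points per array, with the median of the 22 (solid line) and of all genes (dashed line). All points of vasa replicate 1 lie above 0, and the median of uap56 replicate 3 is -0.23.

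Transcript entries of 1 gene gave nearly the same difference and are not independent of each other. For the 12 genes with several entries, the widest range over entries was 0.08, in eIF4A, and no gene had entries on both sides of 0. The 7 entries of eIF5 ran from -0.39 to -0.34, and the 7 of eIF4E1 from -0.30 to -0.24.

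A further 19 genes carry an eIF symbol today but another name in the tables, mostly subunits of eIF3. Among these, 1 passed, higher in vasa (5.26%, against 3.83% of all genes and 7.69% of the 6114), and the median difference was -0.03. The unadjusted p was under 0.05 for 7 (36.8%), against 18.2% of all genes and 30.6% of the 6114 genes in the range of the brighter eIF genes. eIF1 (CG17737), which guards the fidelity of start codon choice, was 1.65-fold higher in vasa, with means of 2068 ± 161 for uap56 and 3439 ± 585 for vasa (n = 3 each). Its arrays did not overlap, and the log2 difference of -0.72 gave an adjusted p of 0.0329 in the limma trend fit and 0.196 with a single prior. The call of eIF1 was lost in each of the 6 fits that left out 1 array, with an adjusted p of 0.0529 to 0.0918 and a difference of -0.81 to -0.59.

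eIF4H1 (Rbp2), which like eIF4B stimulates the helicase, was next, with means of 1441 ± 349 for uap56 and 2419 ± 323 for vasa and a difference of -0.77 (adjusted p = 0.0664, limma). Its vasa arrays were all higher. eIF2A (CG7414), which can deliver initiator tRNA without eIF2 in mammals, had 0.57 (adjusted p = 0.109) and eIF3k (CG10306) 0.50 (adjusted p = 0.143), with the uap56 arrays all higher for both. Chosen after their values were seen, eIF4G2 and eIF2gamma are given too. eIF4G2 (ofs), the paralogue of eIF4G1 that acts in spermatogenesis, averaged 388 ± 108 on uap56 arrays and 563 ± 121 on vasa arrays, and its overlapping arrays gave -0.55 (adjusted p = 0.270). The third subunit of eIF2, eIF2gamma, appears in the tables under Su(var)3-9, with which it shares its locus, and the signal of -0.03 (adjusted p = 0.961) cannot be assigned to either. Taking the 16 eIF3 subunit genes under all names, 8 differences lay above 0 and 8 below, 0 passed in limma (3.83% of all genes did) and 2 had an unadjusted p under 0.05 (12.5%, against 18.2%).

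Of 28 regulators and partners of initiation, 27 were matched and 0 passed in the limma trend fit or with a single prior, where 3.83% and 0.0146% of all genes did, and the median difference was -0.13. In the trend fit 10 had an unadjusted p under 0.05 (37.0%), against 18.2% of all genes and 30.6% of the 6114. The groups were separated for 13 of them (48.1%, against 23.5% of all genes and 34.7% of the 6114). Vasa was higher for 10 of these (37.0% of the 27, against 10.0% of all genes and 13.1% of the 6114). The uap56 arrays were higher for 3 of the 27, against 13.5% of all genes and 1321 of the 6114. Thor, the 4E-binding protein that keeps eIF4E from eIF4G, had the smallest p, with means of 957 ± 203 for uap56 and 576 ± 71.6 for vasa, a difference of 0.72 (adjusted p = 0.0664). Its uap56 arrays were all above. Toward vasa stood larp, whose product binds mRNAs of the translation machinery (844 ± 194 in uap56 and 1378 ± 172 in vasa, -0.72, adjusted p = 0.0694), and bel, a DEAD-box helicase of initiation and relative of Vasa (912 ± 179 and 1405 ± 142, -0.64, adjusted p = 0.0785). Paip2, an inhibitor of the poly(A)-binding protein, had 0.51 (adjusted p = 0.112), while pAbp itself, chosen after its values were seen, had -0.35 (adjusted p = 0.151), each with arrays that did not overlap.

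Among 9 elongation and release factor genes, 1 passed, higher in vasa (11.1%, against 3.83% of all genes and 7.69% of the 6114). An unadjusted p under 0.05 in the trend fit was reached by 3 (33.3%, against 18.2% of all genes and 30.6% of the 6114). The median difference was 0.01. eRF3, the GTPase of translation termination, was 1.65-fold higher in vasa, with means of 1595 ± 314 for uap56 and 2595 ± 149 for vasa. The difference of -0.72 gave an adjusted p of 0.0448 in the limma trend fit and 0.215 with a single prior, and 1 of the 6 fits that left out an array kept the call (adjusted p = 0.0339 to 0.140). Next was eEF1delta, of the exchange factor that recharges eEF1A, at -0.52 (adjusted p = 0.0517). For eEFSec, the selenocysteine factor, the difference was 0.95 (adjusted p = 0.261), and for eEF1beta, another part of the exchange factor, it was 0.31 (adjusted p = 0.306), with overlapping arrays for both.

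**Figure D5:**
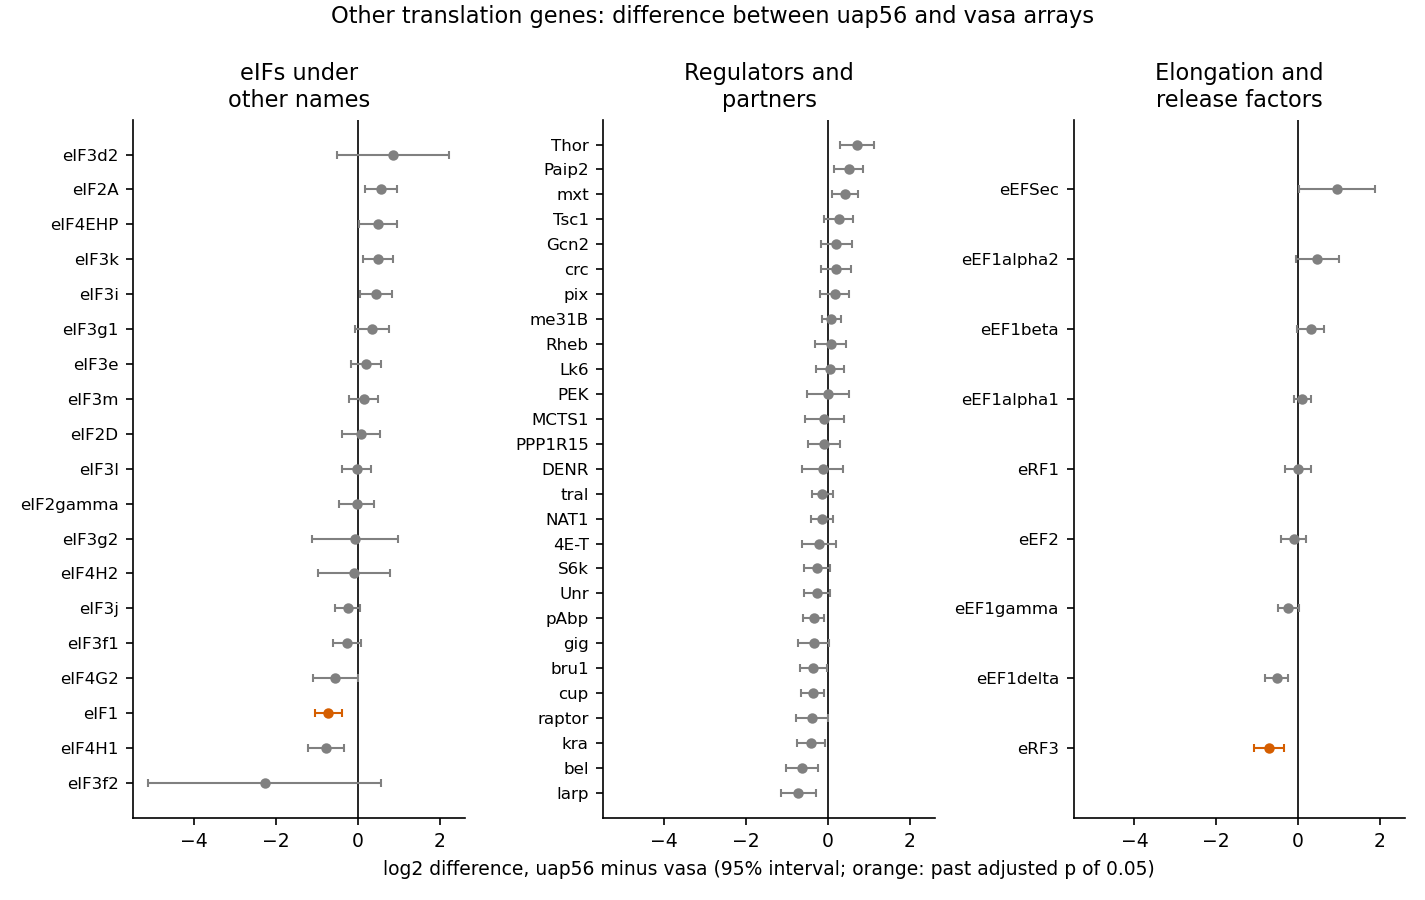
Log2 difference (uap56 minus vasa) with its 95% interval for 19 eIF genes under other names, 27 regulators and partners, and 9 elongation and release factors, each sorted by difference. eIF1 and eRF3 are past the adjusted threshold, and the intervals of weak genes such as eIF3f2 are the widest.

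The 27 genes are spread over the genome, with 5 on the X, 2 on 2L, 6 on 2R, 7 on 3L, 6 on 3R and 1, eIF4G1, on chromosome 4. On chromosome 4, 6 of 80 genes (7.5%) were past the threshold, all higher in vasa (eIF4G1 among them). Of all genes 3.83% passed, with 1.35% higher in vasa, and of the 6114 genes in the range of the 22, 7.69% passed. The median difference of the genes on chromosome 4 was -0.12. On the other arms 3.15 to 4.85% of genes passed in either direction and the medians ran from -0.02 to 0.05. Names, arms and gene order came from the RefSeq annotation of Release 6.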

How the data were processed

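Per the labels, the authors' deposited intensity values are summarised and normalized per RefSeq transcript; how they were normalized, the probes used and the genome build have no description in the sources used. The tables for transposons were not used. The 393 of 21158 entries at 0 on every array were left out, and log2 was taken with no pseudocount. Entries were paired with current genes by accession (19234), by name (1313) or kept their name (611). The entry with the highest mean stood for each gene.

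Groups were compared with limma 3.58.1 in R 4.3.3 (lmFit, eBayes with trend and robust options, two-sided), Benjamini-Hochberg adjusted over 13690 genes, after tests on simulated data. The members, lists, and the choice of the trend fit were made with earlier results of these data known. Genes named are eIF5B, those past 0.05, those whose arrays do not overlap, the 2 largest differences per factor, and in other lists those past 0.05 and up to 4 with the smallest p. The rest of the 27 are also given, and eIF4G2, eIF2gamma, pAbp, the ratio pairs and the neighbouring genes were chosen outside this rule, after their values were seen. Alternatives were a single prior, no robust option, quantile and median scaling, a replicate block, leaving out arrays, a low-intensity filter, a pseudocount of 16, other gene groupings and a threshold of 0.01.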

Additional observations from a re-analysis of the deposited data

How the results depend on the processing

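eIF5B kept its direction and its side of the threshold in every alternative, with -0.69 to -0.35 over the fits without 1 array, -0.61 after quantile normalization (adjusted p = 0.0689) and -0.29 with uap56 replicate 3 and vasa replicate 1 both left out, an alternative chosen after seeing the data. The count of eIF genes past the threshold was 0 toward uap56 in every alternative. Toward vasa it was 0 with a single prior, with both arrays left out and at a threshold of 0.01, 2 after quantile normalization, and 0 to 1 without 1 array. All genes past the threshold, toward uap56 and toward vasa, numbered 1 and 1 with a single prior, 1 and 1 with both arrays left out, 140 and 86 with the replicate block, 376 and 344 after quantile normalization, 602 and 454 with every transcript on its own, and 32 and 25 at a threshold of 0.01, against 340 and 185. Without 1 array they ran from 28 to 307 and from 29 to 202. After subtracting group means, arrays of equal number correlated at -0.0281 to 2.88e-05, so replicate numbers were not taken as pairs. The replicate block changed no call of an eIF-named gene, and the calls of eIF1 (adjusted p = 0.0784) and eRF3 (adjusted p = 0.0759) were lost. Among the 27 genes and Hel25E, signs turned for eIF2alpha (-0.23 to 0.08 without 1 array), eIF2Balpha (-0.57 to 0.09), eIF3b (-0.13 to 0.05), eIF3c (-0.09 to 0.18), eIF3h (-0.17 to 0.09), eIF4AIII (-0.09 to 0.13), eIF4E6 (-0.05 to 0.56), eIF3d1 (-0.20 to 0.012 without 1 array, 0.046 with both left out), eIF6 (0.0073 with both left out) and Hel25E (-0.31 to 0.0040 without 1 array, 0.088 with both left out). The cause of these changes was not tested.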

Other observations

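In the gene order of Release 6, among genes with a value, the 3 neighbours of eIF4G1 on either side had differences of both signs, and none passed. For unc-13 and fuss every vasa array was above every uap56 array, as for 10.0% of all genes. The arrays of the others overlapped, and mGluR was weak, with means of 34.5 for uap56 and 25.0 for vasa. The signal of fuss was also weak, with means of 47.4 for uap56 and 111 for vasa. Gyf stood at 0.03 (adjusted p = 0.951), unc-13 at -0.92 (adjusted p = 0.0634), CR43361 at 0.94 (adjusted p = 0.253), mGluR at 0.42 (adjusted p = 0.713), 4E-T, which encodes an eIF4E-binding protein, at -0.23 (adjusted p = 0.577) and fuss at -1.24 (adjusted p = 0.0671), by limma. Next to eIF5B lies armi, a helicase gene of the piRNA pathway, with 670 ± 150 in uap56 and 1005 ± 204 in vasa, a difference of -0.59 (adjusted p = 0.174) that did not pass. Every vasa array of armi was above every uap56 array, as for 10.0% of all genes. The other neighbours of eIF5B had differences of -0.30 to 0.12.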
